A study of Bos taurus with 129 samples.

Results

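Whole blood of stocker cattle labelled as having had bovine respiratory disease (BRD) was compared between the day they were enrolled after arrival (day 0) and day 13 of the feeding period. The members were chosen by their labels alone, as the day 0 and day 13 libraries of every animal labelled with disease, and comprised 28 RNA sequencing libraries, 2 from each of 14 animals, out of a series that sampled 26 animals on 5 days. Of the 14, 4 received Cu, Co, Mn and Zn complexed with amino acids in their feed (AAC) and 7 received the same minerals as sulfates (INR). The remaining 3 had the complexed minerals in feed and were drenched by mouth with trace minerals as well, before shipment, at day 0 and with any treatment for illness (COMBO). The labels of the healthy cattle gave 11 animals with both days (3 AAC, 4 COMBO and 4 INR), which were used for comparison.

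All groups were crossbred beef steers bought through an order-buyer, whose earlier history was unknown and whose age is not given in the sources used here, and all had been trucked over a long distance. Every steer was vaccinated against respiratory viruses and given doramectin on day 0, and the mineral feeds began on that day, while the COMBO steers had already been drenched before shipment. By the pens in the labels, no pen held more than 1 supplement, and within COMBO the BRD and the healthy cattle were in separate pens, so that pen cannot be told apart from supplement, nor from disease within COMBO. The days on which animals were diagnosed with and treated for BRD are not given in the labels, so that a day 13 sample can precede or follow treatment. Recovery from transport, vaccination, the dewormer, the feed, disease, its treatment and time itself therefore cannot be told apart. The library numbers also ran in the order of the days, so day and library order cannot be told apart either.

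Blood RNA comes mainly from leukocytes, with smaller parts from platelets and young red cells. Fasted or stressed animals release fatty acids from fat, and the fatty acids activate the nuclear receptor PPAR alpha, which switches on genes for fatty acid import and oxidation. Sterol synthesis is under a separate control, in which SREBP transcription factors switch on the genes of the pathway when sterols in the cell are low. Glucocorticoids released under stress act on leukocytes directly and raise a well-known group of genes.

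Total counts ranged from 34928094 to 54306034 in the 28 libraries, with a median of 41353251, and their difference between the days did not pass the test (exact sign-flip test over the 14 pairs, two-sided p = 0.496). At these depths 3 counts amounted to 0.0552 to 0.0859 CPM, counts scaled to library size. Markers of T cells (CD3E, day 0 median 368 CPM), B cells (CD79A, 598 CPM), monocytes (FCN1, 722 CPM) and platelets (ITGA2B, 179 CPM) were present, as the label of whole blood requires. The share of counts from haemoglobin genes was higher on day 13 in all 14 animals, and it is given with the red cell genes below. The day 0 and day 13 libraries of an animal deviated together from the means of their days, with correlations of 0.188 to 0.536, against a median of -0.0291 between different animals, so every test was paired by animal.

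Between day 0 and day 13, RNA of the haptoglobin gene HP fell in the blood of the BRD cattle. So did that of part of the genes listed for fatty acid oxidation, monocytes and glucocorticoid induction. Haemoglobin genes rose, as did part of the genes listed for red cells, sterol synthesis, the cell cycle, and eosinophils and basophils. At a false discovery rate (FDR) below 0.10, 792 genes were higher on day 13 (4.95% of the 16008 tested) and 657 were lower (4.1%). Most changes were small. The absolute log2 fold change of the called genes had a median of 0.46 among those that rose and 0.37 among those that fell, and 99 rose and 55 fell by at least 2-fold. Of the called genes, 66 rose and 75 fell in all 14 animals. The number called depended on which animals entered: it was 383 without animals 9, 21 and 41, whose libraries held much haemoglobin RNA, 251 without the 4 AAC cattle, 823 without the 3 COMBO cattle, 422 without the 7 INR cattle and 940 without animal 21 alone. Animals 9, 21 and 41 were all AAC cattle, so their omission also removed most of that supplement. INR animal 39 remained in the fit without them, although its haemoglobin share at day 13 was 3.98% against 3.09% in animal 9. All 1437 called genes that could be tested without animals 9, 21 and 41 kept their direction there, and 375 of the 383 genes called then were among the 1449.

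In 7 genes, 0.0437% of those tested, the 14 values of one day lay wholly above those of the other. These were KLF11 and SLC25A20, higher at day 0, and SCD, MSMO1, IDI1, SQLE and LSS, higher at day 13. Apart from KLF11 they are enzymes or carriers of lipid metabolism, and they are described with their groups.

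KLF11, a zinc finger transcription factor of the Krüppel-like family, had the smallest p of any gene. It ranged from 16.5 to 49.8 CPM at day 0 (median 39.5) and from 6.48 to 15.4 CPM at day 13 (median 10.99), a log2 fold change of -1.76 (SE 0.10, FDR = 1.62e-07). Its close relative KLF10 fell less, from a median of 70.8 to 48.9 CPM (log2 fold change -0.61, SE 0.06, FDR = 5.14e-05), and was lower in all 14 animals although the days overlapped. The lowest day 0 values of KLF11, PDK4 and CPT1A were all in COMBO animal 18.

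Of 36 genes listed for fatty acid oxidation, 30 could be tested, 7 fell and none rose, and the list median was -0.12 against -0.00114 over all tested genes. The largest falls were those of CD36, PDK4, CPT1A and SLC25A20. PDK4, the kinase that shuts off pyruvate dehydrogenase and so spares glucose, stood between 26.56 and 199 CPM at day 0 (median 112.9) and between 9.04 and 44.8 CPM at day 13 (median 17.1). It was lower in every animal, by 2.54 on the log2 scale (SE 0.17, FDR = 7.86e-07), and apart from animal 18 every day 0 value, from 80.1 CPM upwards, lay above every day 13 value. CPT1A, which attaches fatty acids to carnitine for transport into mitochondria, ranged from 70.5 to 277 CPM (median 196) at day 0. At day 13 it lay between 38.26 and 81 CPM in 13 animals (median of all 68.97) and higher in AAC animal 21, and it was lower than at day 0 in all, with a log2 fold change of -1.42 (SE 0.11, FDR = 3.18e-06).

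SLC25A20, the carrier that takes acylcarnitines across the inner mitochondrial membrane, ranged from 32.3 to 67.4 CPM at day 0 and from 15.8 to 31.06 CPM at day 13, with no overlap (log2 fold change -0.95, SE 0.08, FDR = 6.33e-06). CD36, a receptor for fatty acids and oxidized lipoproteins, had few counts, with medians of 1.09 and 0.17 CPM, and fell in all 14 animals (log2 fold change -3.25, SE 0.40, FDR = 0.000397). ANGPTL4, an inhibitor of lipoprotein lipase, fell by 0.45 on the log2 scale in 13 animals. The enzymes of the oxidation cycle itself moved little. ACADVL, which starts the oxidation of very long chains, fell by 0.22 and the peroxisomal thiolase ACAA1 by 0.23, while the other 23 tested members, PPARA among them, did not pass the test. The summed level of the list was lower in 13 of the 14 animals. When animals 9, 21 and 41 were left out, 4 genes of the list fell.

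**Figure D1:**
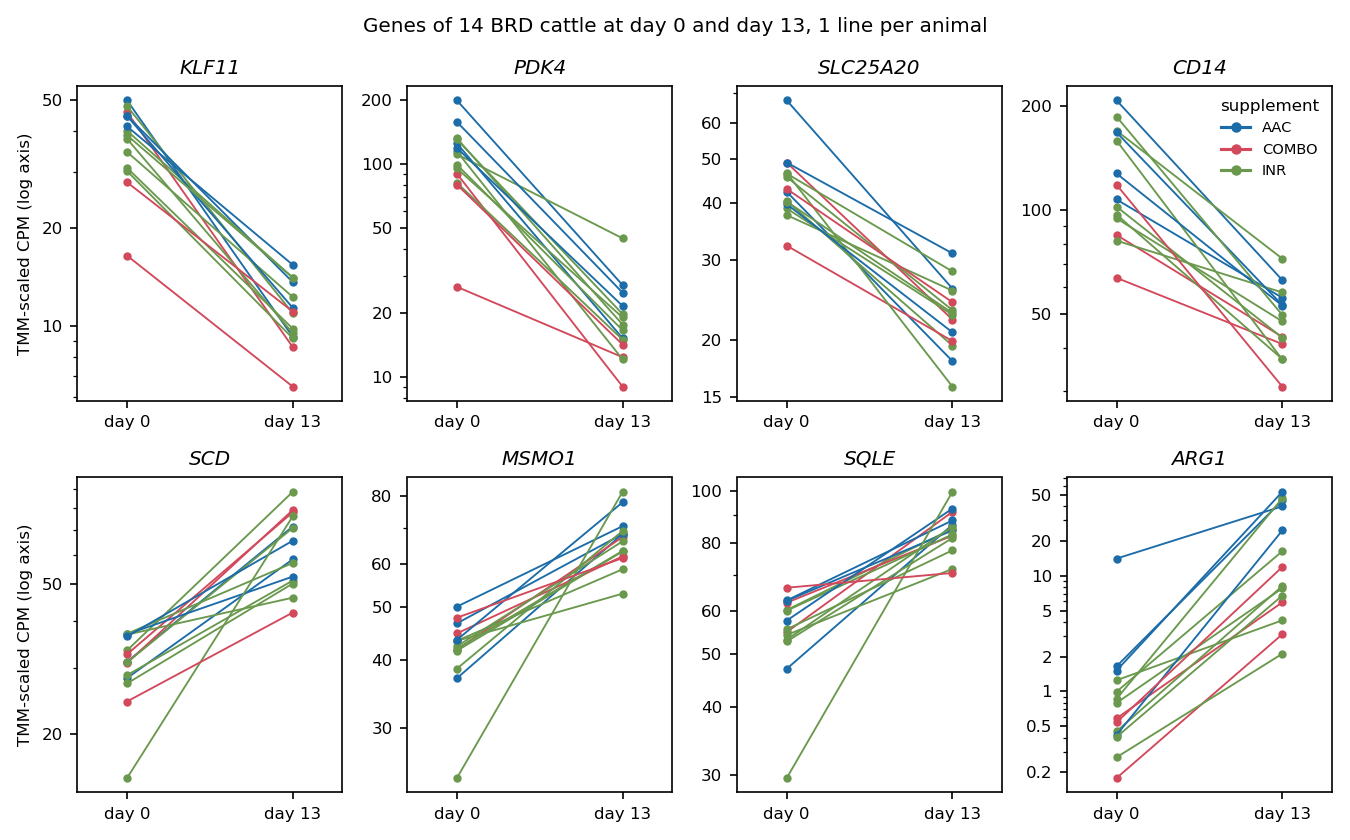
TMM-scaled CPM on log axes at day 0 and day 13 for 8 genes in 14 BRD cattle, 1 line per animal and colours for the supplement. KLF11, PDK4, SLC25A20 and CD14 fell and SCD, MSMO1, SQLE and ARG1 rose in all 14 animals, and the 2 days do not overlap for KLF11, SLC25A20, SCD, MSMO1 and SQLE.

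The genes of sterol synthesis moved the other way. Of 27 tested members of the cholesterol list (29 listed), 16 rose and 1 fell, the median log2 fold change was 0.29, and the summed level was higher in all 14 animals, with medians of 1563 and 1930 CPM. The members that rose included the enzyme genes IDI1, FDPS, PMVK, FDFT1, SQLE, LSS, CYP51A1, MSMO1, NSDHL, SC5D and DHCR7, together with INSIG1, which retains SREBP in the endoplasmic reticulum, and the liver X receptor gene NR1H3. ABCA1, which exports cholesterol from cells, fell by 0.67 on the log2 scale (SE 0.14, FDR = 0.0101).

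MSMO1, which removes methyl groups from sterols, was at 24.2 to 50.1 CPM and then at 52.9 to 81.5 CPM, without overlap (0.67, SE 0.09, FDR = 0.000792). IDI1, the isomerase that makes the prenyl building block, was at 25.3 to 42.9 CPM and then at 43.96 to 61.1 CPM, also without overlap (0.52, SE 0.07, FDR = 0.000857). FDFT1, which commits the pathway to sterols, rose from a median of 51.6 to 82.86 CPM, with a log2 fold change of 0.67 (FDR = 0.000986) and a day 0 maximum of 84.6 CPM that reached into the day 13 range.

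SQLE, the squalene epoxidase, ranged from 29.6 to 66.28 CPM and then from 70.6 to 99.47 CPM, and LSS, which closes the sterol ring, from 17.1 to 35.4 CPM and then from 35.9 to 53.6 CPM. SCD, the stearoyl-CoA desaturase, lies outside the list and had the smallest p of the lipid genes that rose. It was at 15.2 to 36.9 CPM at day 0 and at 42.1 to 88.3 CPM at day 13 (log2 fold change 1.04, SE 0.12, FDR = 0.000265). INR animal 43 was lowest at day 0 in SCD, MSMO1 and SQLE. Leaving out animals 9, 21 and 41 gave 9 rises and 1 fall in the list.

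RNA of the haptoglobin gene and of monocyte genes fell, and no protein was measured here. HP, which encodes the plasma protein that binds free haemoglobin and is a common marker of inflammation in cattle, ranged from 98.2 to 940 CPM at day 0 (median 259) and from 30.7 to 129.2 CPM at day 13 (median 77.6). It was lower in each of the 14 animals, with a log2 fold change of -1.96 (SE 0.15, FDR = 3.18e-06), and the highest day 0 values were in INR animals 40 and 43 and AAC animal 21. CD163, the macrophage receptor for haptoglobin bound to haemoglobin, had its 3 highest day 0 values in the same animals and fell in all 14, from a median of 145 to 48.3 CPM (log2 fold change -1.91, SE 0.28, FDR = 0.00139). SLC11A1, an iron and manganese transporter of phagosomes, fell by 1.18 on the log2 scale in 12 animals. These were the only 3 of the 15 tested genes for acute-phase proteins and iron that were called, the list median was -0.12, and 7 listed ones, SAA3 and HAMP among them, had too few counts to test.

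Of 21 monocyte markers, all tested, 9 fell and 1 rose, with a median of -0.32. CD14, the co-receptor for bacterial lipopolysaccharide, ranged from 63.8 to 208 CPM at day 0 (mean 126.3 ± 44.2, SD, n = 14) and from 30.92 to 72.5 CPM at day 13 (mean 48.9 ± 11), and was lower in all animals (log2 fold change -1.32, SE 0.13, FDR = 3.25e-05). FCN1, a secreted ficolin of monocytes, fell from a median of 722 to 325 CPM (log2 fold change -1.30, SE 0.13, FDR = 5.66e-05). VCAN, MSR1, MARCO, TLR4, CCR2 and LGALS3 also fell, by 0.38 to 2.71. CX3CR1, a chemokine receptor of non-classical monocytes and some lymphocytes, rose in all animals, from 52.4 to 200 CPM at day 0 to 143 to 320 CPM at day 13 (log2 fold change 0.66, SE 0.10, FDR = 0.00187). CSF1R, the growth factor receptor of monocytes, did not pass the test, at medians of 299 and 263 CPM (FDR = 0.419). In whole blood, fewer cells of a type and less RNA per cell cannot be told apart. In the fit without animals 9, 21 and 41, 6 markers fell and 1 rose, and without the AAC cattle 3 fell and 1 rose.

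Several other genes were among the 12 named falls of smallest p. FCGRT, the neonatal Fc receptor, which returns IgG and albumin to the blood, fell in every animal, from a median of 138 to 63.9 CPM (log2 fold change -1.17, SE 0.13, FDR = 0.000184). BRB, a ribonuclease of the RNase A family, fell from a median of 21.4 to 3.94 CPM (-2.59, FDR = 3.27e-05), and CYP2J2, an epoxygenase of fatty acids, from 12.1 to 6.93 CPM (-1.17, FDR = 0.000184). The family of BRB holds near-identical copies among which reads may have been split, so its own level is uncertain. FOXQ1, a forkhead transcription factor, was scarce, and fell from a median of 1.56 to 0.559 CPM (-1.88, FDR = 2.33e-05).

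Of the 11 tested Fc receptor genes, FCGRT and FCGR1A fell and FCER1A rose, with a median of -0.15. Of the 18 Toll-like receptor and adaptor genes tested, 4 fell and none rose, with a median of -0.19: CD14, TLR4, MYD88 and TLR7, of which TLR4 fell from a median of 89.6 to 61.9 CPM. Among 18 tested genes of interleukin-1 and the inflammasome, NLRC4, the receptor antagonist IL1RN, the adaptor PYCARD and the decoy receptor IL1R2 fell and none rose, with a list median of -0.15. IL1R2 reached 102.4 CPM in animal 40 at day 0 and was at most 34.3 CPM in the other 13. Without the INR cattle, the list median was 0.02. The lists of this paragraph were not tested against the shares over all tested genes, 4.95% higher and 4.1% lower.

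Neutrophil genes did not move as a block. Of 21 tested alarmin and chemotaxis genes, 6 fell and 1 rose, with a median of -0.22, and of 14 tested granule genes, 4 fell (HP, CHI3L1, BPI and ITGAM) and 2 rose (ARG1 and MPO), with a median of -0.12 that became 0.06 without the INR cattle. S100A8, S100A9 and S100A12, the calgranulins that neutrophils and monocytes hold in large amounts, fell by 1.05, 0.98 and 0.94 on the log2 scale (FDR between 0.0086 and 0.0204). The day 0 level of S100A9 was spread from 326 to 3054 CPM (median 536), with the highest value in animal 43, and at day 13 it lay between 168 and 607 CPM (median 350). BPI, a granule protein that kills gram-negative bacteria, fell from a median of 44.42 to 10.3 CPM in 12 animals. All 6 cathelicidin genes listed had too few counts to test. CXCR2, the chemokine receptor of neutrophils, had medians of 72.5 and 74.1 CPM and was not called (FDR = 0.626).

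ARG1, the enzyme that splits arginine, rose furthest of the 14 tested granule genes. It ranged from 0.179 to 14.1 CPM at day 0 (median 0.691) and from 2.12 to 53.1 CPM at day 13 (median 10.01), and was higher in all 14 animals (log2 fold change 3.95, SE 0.36, FDR = 2.33e-05). The high day 0 value was that of AAC animal 9, the library with the most haemoglobin counts on that day, and the next highest was 1.65 CPM. At day 13, the 4 highest ARG1 values were in animals 9, 21, 39 and 41, which were also the 4 with the most haemoglobin counts. Without animals 9, 21 and 41 the log2 fold change of ARG1 was 3.98 (FDR = 0.000277).

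Haemoglobin genes took 0.0054 to 0.694% of all counts at day 0 (median 0.0242%) and 0.0398 to 8.00% at day 13 (median 0.736%). The share rose in all 14 animals, and the exact sign-flip test gave p = 0.000122, the smallest value 14 pairs allow (FDR over the 4 library measures = 0.000488). At day 13 it was 8.00% in animal 41 and 6.84% in animal 21, both AAC, 3.98% in INR animal 39 and 3.09% in AAC animal 9. It lay between 1.22 and 8.00% in the 4 AAC cattle, between 0.112 and 0.504% in the 3 COMBO cattle and between 0.0398 and 3.98% in the 7 INR cattle, so that AAC and COMBO did not overlap. The share taken by the 10 most abundant genes of a library was higher in 12 of the 14 animals. Its mean over all 14 went from 4.903 to 6.39% (exact sign-flip test, p = 0.00488).

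**Figure D2:**
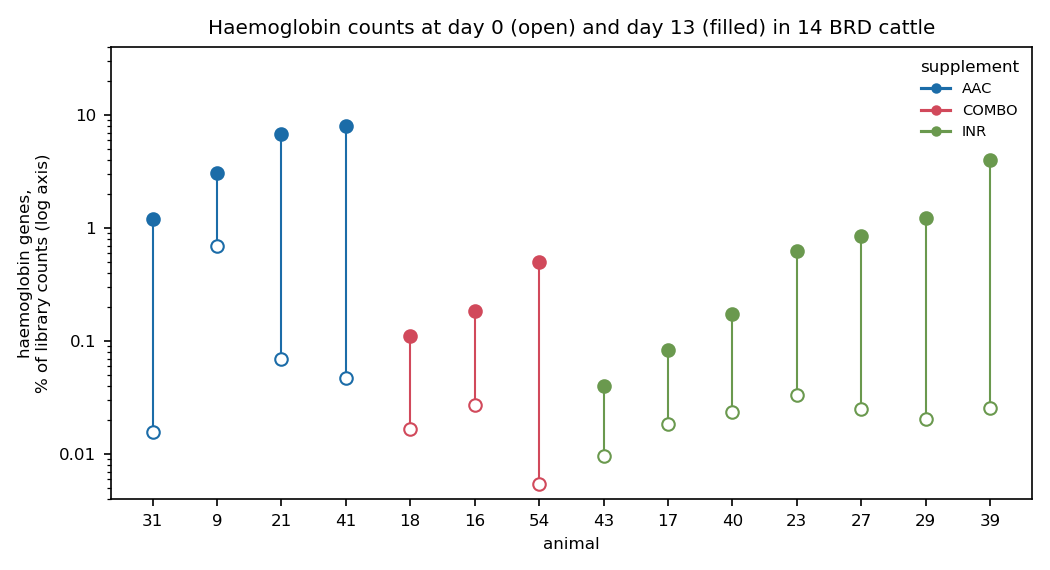
Share of each library's counts in haemoglobin genes (percent, log axis) at day 0 (open) and day 13 (filled) for each of 14 BRD cattle, grouped by supplement. The share rose in all 14 animals, from a median of 0.0242% to 0.736%, and reached 8.00% in animal 41.

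Of 29 tested genes for red cells and heme synthesis (34 listed), 15 rose and none fell, with a median of 1.07. HBB, the beta-globin gene, ranged from 35.6 to 1878 CPM at day 0 (median 102.9) and from 167 to 24110 CPM at day 13 (median 1898), with a log2 fold change of 3.88 (SE 0.63, FDR = 0.00268). HBA1 and HBA, 2 alpha-globin entries whose reads may be shared between near-identical copies, rose by 5.27 (SE 0.67) and 4.22 (SE 0.48). ALAS2, the first enzyme of heme synthesis in red cell precursors, went from 1.31 to 80.7 CPM (median 4.37) to 4.57 to 1025 CPM (median 84), a log2 fold change of 4.02 (SE 0.53, FDR = 0.000568).

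The days overlapped for each of these 4 genes. GYPB, a glycophorin of the red cell surface, rose from a median of 0.252 to 1.78 CPM (3.11, FDR = 0.000232), and CA2, a carbonic anhydrase, from 4.39 to 18.9 CPM (1.87, FDR = 0.00261). HBM, EPB42, HEMGN, DMTN, SLC4A1, ALAD and AHSP rose as well. REEP1, which shapes endoplasmic reticulum membranes, and SSX5 stood among the 12 strongest rises and had a like spread, with day 13 maxima of 88.9 and 82.3 CPM and log2 fold changes of 4.25 (SE 0.49) and 3.76 (SE 0.46). Without animals 9, 21 and 41, 11 of 28 tested genes of the list rose, with a median of 0.49, and without animal 21 alone the median was 0.70.

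Of 20 genes listed for eosinophils and basophils, 10 were tested, 5 rose and none fell, with a median of 0.80. The summed level of the list, however, was higher at day 13 in only 5 of the 14 animals. FCER1A, the alpha chain of the high-affinity IgE receptor, rose in every animal, from 0.832 to 6.71 CPM at day 0 (median 3.30) to 3.46 to 12.4 CPM at day 13 (median 7.67), a log2 fold change of 1.07 (SE 0.14, FDR = 0.000567). MS4A2, its beta chain, and GATA2, a transcription factor of basophils and mast cells, rose by 1.17 and 1.04 in 13 animals each. CPA3, a mast cell protease, and PRG3, a granule protein of eosinophils, had under 1 CPM at the day 0 median and rose by 1.22 and 2.82. IL5RA and SIGLEC8, both receptors of eosinophils, had negative log2 fold changes (-0.39 and -0.24) and did not pass the test, nor did CCR3, HPGDS and ALOX15. CLIC2, an intracellular chloride channel protein, lay outside the lists and rose from a median of 2.90 to 6.74 CPM in all animals (1.18, SE 0.15, FDR = 0.000567). MAPK11, a p38 kinase, was at or below 0.425 CPM in every day 0 library and at a median of 1.12 CPM at day 13 (2.55, FDR = 3.27e-05).

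Of 19 tested platelet markers, 7 rose and 1 fell, with a median of 0.39, while the summed level of the list was higher at day 13 in only 6 of the 14 animals. MPIG6B, an inhibitory receptor of platelets, rose from a median of 158 to 285 CPM (0.92, SE 0.18, FDR = 0.00841) and SELP, the P-selectin gene, by 0.83. THBS1, which monocytes also express, fell from a median of 113.8 to 41.6 CPM (-1.33, FDR = 0.0245). Without animals 9, 21 and 41, 1 platelet gene rose, and without the AAC cattle none was called, with list medians of 0.40 and 0.38. The median was 0.20 with 1 rise without the COMBO cattle, and 0.82 with 7 rises without the INR cattle.

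Part of the cell cycle genes rose by a small amount. All 44 listed were tested, 21 rose and none fell, 43 had a positive log2 fold change, and the median was 0.35. CENPF, a kinetochore protein, rose from a median of 41.9 to 63.4 CPM (0.50, SE 0.09, FDR = 0.00642), TOP2A, the topoisomerase of dividing cells, from 56.3 to 83.3 CPM (0.52, FDR = 0.00908), and BUB1B, a spindle checkpoint kinase, from 10.16 to 15.6 CPM (0.52, FDR = 0.0122). MKI67, the proliferation marker, rose in 11 of 14 animals (0.47, FDR = 0.0407). The summed level of the list was higher in 10 animals. Called rises dropped to 5 without animals 9, 21 and 41, to 1 without the AAC cattle and to 6 without the COMBO cattle, with medians of 0.39, 0.35 and 0.34.

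**Figure D3:**
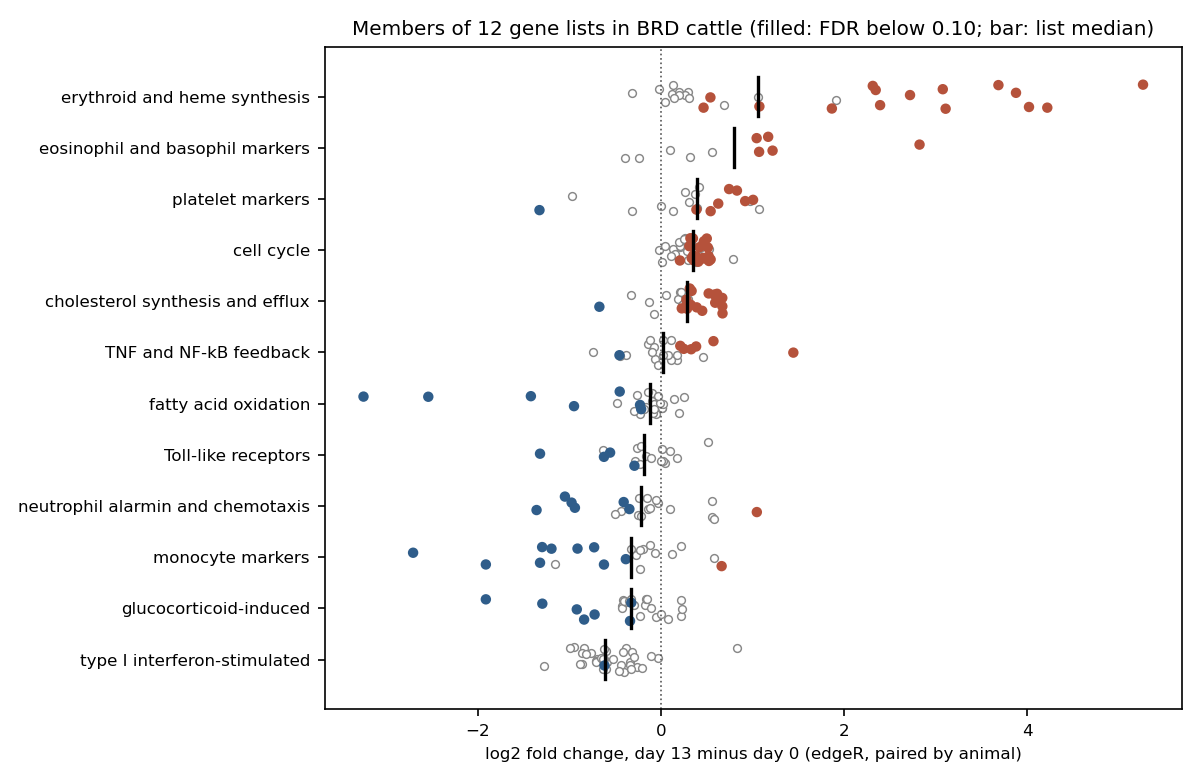
Log2 fold change (day 13 minus day 0) of each tested member of 12 gene lists in BRD cattle, with filled points for genes called at FDR below 0.10 and a bar at each list's median. Red cell genes reached 5.27, CD36 fell by 3.25 within the fatty acid list, and 37 of 38 type I interferon-stimulated genes lay below 0 with a single one called.

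Genes that glucocorticoids raise fell in part. Of 26 listed and tested, 7 fell and none rose, with a median of -0.33, and the summed level was lower in 12 animals. The members called were CD163, ALOX5AP, which helps to make leukotrienes, the chemokine receptor CXCR4, the anti-inflammatory annexin ANXA1, IL1R2, TSC22D3 and ZBTB16. TSC22D3, the glucocorticoid-induced leucine zipper, fell from a median of 1268 to 944 CPM in 12 animals (-0.34, SE 0.10, FDR = 0.0528). CXCR4 fell from a median of 110 to 61.8 CPM in 11 animals (-0.73, FDR = 0.0295). CD163 and IL1R2 are also monocyte or neutrophil genes, and for none of the 7 can cell numbers be told apart from RNA per cell. FKBP5, PER1, DUSP1 and 16 others did not pass the test, and 2 of the 7 were called without animals 9, 21 and 41.

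Of the type I interferon-stimulated genes, 1 passed the test. Of 38 tested, LGALS3BP alone was called, lower by 0.62 (SE 0.20, FDR = 0.0829), although 37 had a negative log2 fold change and the list median was -0.61. MX1 shows the spread. MX1, an antiviral GTPase, ranged from 314 to 5283 CPM at day 0 (median 898) and from 285 to 4500 CPM at day 13 (median 464), and was not called (FDR = 0.430). It was highest at day 0 in COMBO animals 18 (5283 CPM) and 54 (3213 CPM), which were at 816 and 419 CPM at day 13, and highest at day 13 in COMBO animal 16 (4500 CPM) and INR animal 17 (2611 CPM), which had been at 573 and 909 CPM. High levels thus occurred on either day, in different animals. Of 19 tested genes of the interferon gamma response, PSMB10, an immunoproteasome subunit, and FCGR1A fell and none rose. The share of all tested genes that fell was 4.1%, and neither interferon list was tested against it.

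Of 25 tested genes of TNF and NF-kB feedback, 6 rose (TNIP3, PTGS2, TNF, BIRC3, RELB and NFKB2) and CCL5 fell, with a median of 0.02. TNIP3, an inhibitor of NF-kB signalling, rose in all 14 animals from a median of 0.510 to 1.18 CPM (1.45, SE 0.27, FDR = 0.00671), and TNF by 0.25 in 11 animals. In the fit without animals 9, 21 and 41, 1 gene of the list was called. IL4R, SOCS3 and STAT3 fell among 25 STAT targets and feedback genes, by 0.23 to 0.46. Of 23 immediate early genes, NR4A1, a nuclear receptor induced by cell stimulation, rose in every animal from a median of 7.67 to 16.1 CPM (0.97, SE 0.14, FDR = 0.00116) and FOSL2 fell. NFIL3 alone fell among 18 clock genes. The medians of the interferon gamma, STAT, immediate early and clock lists were -0.16, -0.04, -0.11 and 0.06. Over all tested genes 4.95% rose and 4.1% fell, and none of these lists was tested against those shares.

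Most lymphocyte markers did not pass the test. The shares over all tested genes were 4.95% higher and 4.1% lower, and the lists were not tested against them. CD72 and CR2 rose among 20 B cell markers, ICOS and LEF1 among 23 alpha-beta T cell markers, and none of 19 plasma cell and 11 gamma-delta T cell genes was called, among them HSP90B1 and WC1.3, with log2 fold changes of 0.18 and 0.15. Of 23 cytotoxic and NK cell markers, GZMA and GZMK rose and KLRJ1, CCL5 and CTSW fell. FOXP3, the transcription factor of regulatory T cells, rose in all 14 animals, from 4.39 to 9.81 CPM at day 0 (median 6.78) to 6.52 to 12.7 CPM at day 13 (median 9.63), with a log2 fold change of 0.42 (SE 0.08, FDR = 0.00783), while LRRC32, a surface protein of these cells, fell by 0.51. Among 18 genes of MHC class II presentation, CD40 rose and CTSH, BOLA-DMB and BOLA-DOB fell. The BOLA genes are polymorphic and similar to each other, so that reads may have been lost or shared among them. The medians of the lymphocyte and MHC class II lists lay between -0.08 and 0.07.

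Most genes of mineral handling, stress and glucose use did not pass the test. Over all tested genes 4.95% rose and 4.1% fell, and whether these lists differed from those shares was not tested. Of 33 tested genes for zinc, copper and cobalamin, 3 fell and none rose. TCN2, the plasma carrier of cobalamin, fell in all 14 animals, from a median of 44.9 to 34.98 CPM (-0.59, SE 0.10, FDR = 0.00375), the zinc exporter SLC30A1 fell by 0.34 and the zinc importer SLC39A1 by 0.26. SRXN1 rose and PRDX5 fell among 25 antioxidant genes, TRAP1 rose and HSPB1 fell among 22 chaperones, and ATF6 and ERN1, both sensors of endoplasmic reticulum stress, fell slightly among 25 genes of that response. In glycolysis, SLC2A1 rose and PFKFB3, LDHA, PFKFB4 and PGAM1 fell among 24 genes, PFKFB3 in all animals from a median of 273 to 180 CPM. The medians of the mineral, antioxidant, chaperone, endoplasmic reticulum and glycolysis lists lay between -0.11 and -0.02. None of the 44 nuclear-encoded respiratory chain genes was called, with a median of -0.11, and the most abundant, ATP5F1B, was at medians of 393 and 372 CPM.

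Genes of connective tissue and vessels, most of them chosen as not expected in blood, were counted as a check. Of 15 tested, CDH5, KDR, PECAM1 and COL1A2 rose and VIM fell, with a median of 0.72. Blood cells also express PECAM1 and VIM. COL1A2, a collagen chain, was at 607 CPM in the day 13 library of animal 21 and at most 21.2 CPM in the other 27 libraries. The contribution of tissue RNA to that library was not tested, and without animal 21 the list had 2 rises and a median of 0.43.

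The healthy cattle were used to ask whether the change differed with disease. In their 11 pairs, 1145 of 16063 genes were called (7.13%). Of the 1434 genes called in BRD cattle and tested in both, 1407 (98.1%) had the same sign in the healthy cattle, against 77.6% of all 15837 genes tested in both, and 541 were called in both, 37.7% of the BRD calls and 47% of the healthy ones. The animals of these comparisons were distinct. PDK4 had a log2 fold change of -2.80 in healthy cattle against -2.54 in BRD cattle, CPT1A -1.88 against -1.42, HP -1.72 against -1.96, SCD 1.10 against 1.04 and HBB 2.93 against 3.88.

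The test of the difference itself called 0 of 16927 genes (0%), with a smallest FDR of 0.9999 and 365 genes at an unadjusted p below 0.05, and DESeq2 called 2. Those 365 are a smaller share than the 0.05 to be reached on average if no gene differed. The genes of smallest p were LOC112443766, at -1.15 in BRD and 1.33 in healthy cattle, LOC104970637, at 0.39 and -0.47, and LOC112443213, at -0.24 and 0.50. KLF11 fell by 1.76 in BRD and by 2.36 in healthy cattle, a difference of 0.60 (SE 0.17, unadjusted p = 0.00170, FDR = 0.9999). FOXP3 had a log2 fold change of 0.09 in healthy cattle (difference 0.33, SE 0.12, unadjusted p = 0.00949, FDR = 0.9999), and CCR2 of 0.09 against -0.91 in BRD cattle (difference -1.001, SE 0.31, unadjusted p = 0.00353, FDR = 0.9999). None of the other genes named here passed this test either, which does not show that they changed alike.

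**Figure D4:**
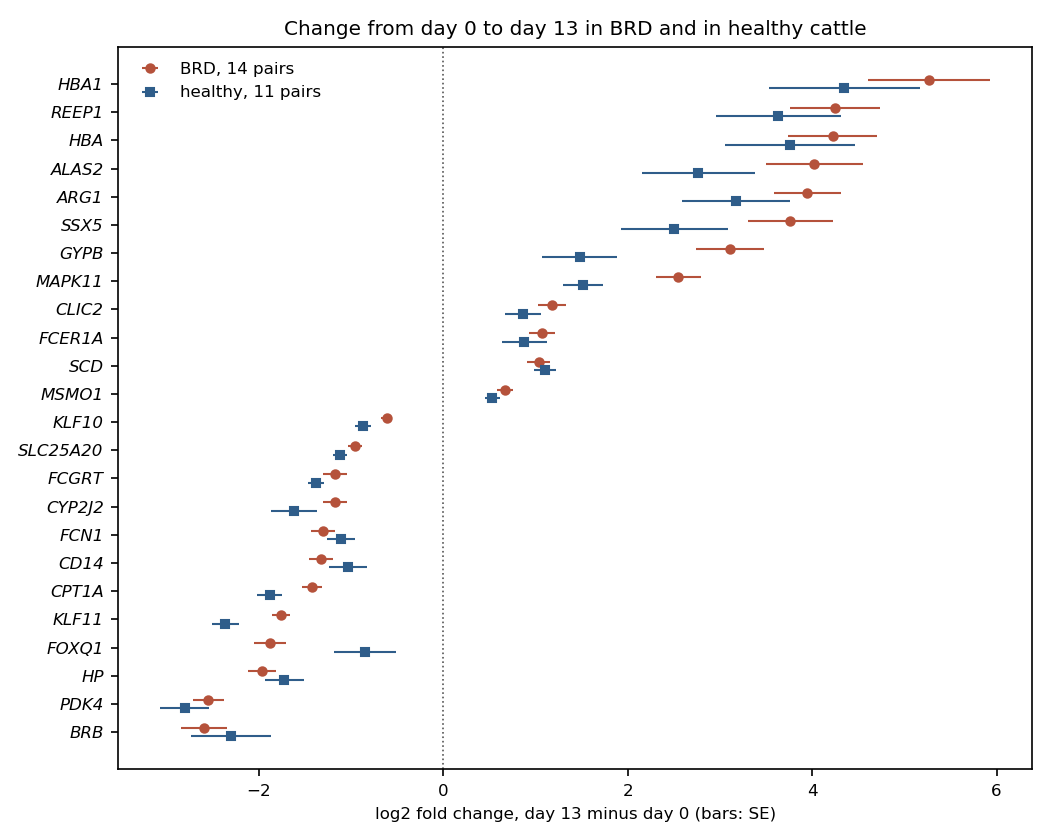
Log2 fold change from day 0 to day 13 with its SE (bars) for the 12 named genes of smallest p in each direction, in 14 BRD (circles) and 11 healthy (squares) pairs. All had the same sign in both groups. BRB lay at -2.59 in BRD and -2.30 in healthy cattle, and HBA1 at 5.27 and 4.35.

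The supplements were compared by whether the change differed among them. With 4, 3 and 7 animals, 0 of 16008 genes (0%) passed (smallest FDR 0.560, 1383 genes at an unadjusted p below 0.05), DESeq2 called 110, and leaving out COMBO animal 16 gave 711 calls. HSPB1, a small heat shock protein, had the smallest p. Its mean log2 change was -1.43 in COMBO, -0.32 in AAC and -0.14 in INR cattle. LOC112441469 (-1.46 in AAC, 0.04 in COMBO and 0.23 in INR) and MCTP1 (0.30, 0.93 and -0.13, in the same order) followed, all at an FDR of 0.560. PDK4 fell by 2.76, 2.30 and 2.50 in AAC, COMBO and INR cattle. HBB rose by 5.24 in AAC, 2.94 in COMBO and 3.57 in INR cattle, a difference that did not pass the test (unadjusted p = 0.276, FDR = 0.720).

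The later samples of the same 14 animals show the course of the named genes. Days 28, 45 and 60 were each set against the same day 0 libraries, so the comparisons are not independent, and the steers had been vaccinated again between days 13 and 28. Of 17172 genes, 3272 (19.1%), 3574 (20.8%) and 3038 (17.7%) were called. The CPM at days 0 and 13 were scaled over the 28 libraries of those days, and the later ones over the 70 libraries of the BRD cattle. Small differences in median between days 0 or 13 and the later days may therefore reflect the scaling, which was not tested. PDK4 had medians of 112.9, 17.1, 10.9, 16.8 and 16.5 CPM at the 5 samplings in order, and CPT1A of 196, 68.97, 56.8, 62.18 and 59.8 CPM. HP had medians of 259, 77.6, 60.3, 76.9 and 54.1 CPM. Each of the 3 remained called against day 0 on every later day. SCD was highest at day 28, with medians of 31.05, 61.9, 79.1, 64.5 and 55.6 CPM.

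Other genes had another course. FOXP3 had medians of 6.78, 9.63, 8.36, 7.25 and 6.95 CPM and was not called against day 0 on days 28, 45 or 60 (FDR between 0.325 and 0.582). MKI67 went from 263 to 369, 393, 334 and 274 CPM and was called at days 13 and 28. MS4A2 was at 3.85, 9.45, 4.55, 5.58 and 5.23 CPM and was called at day 13 alone. HBB moved up and down, with medians of 102.9, 1898, 437, 1829 and 625 CPM.

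**Figure D5:**
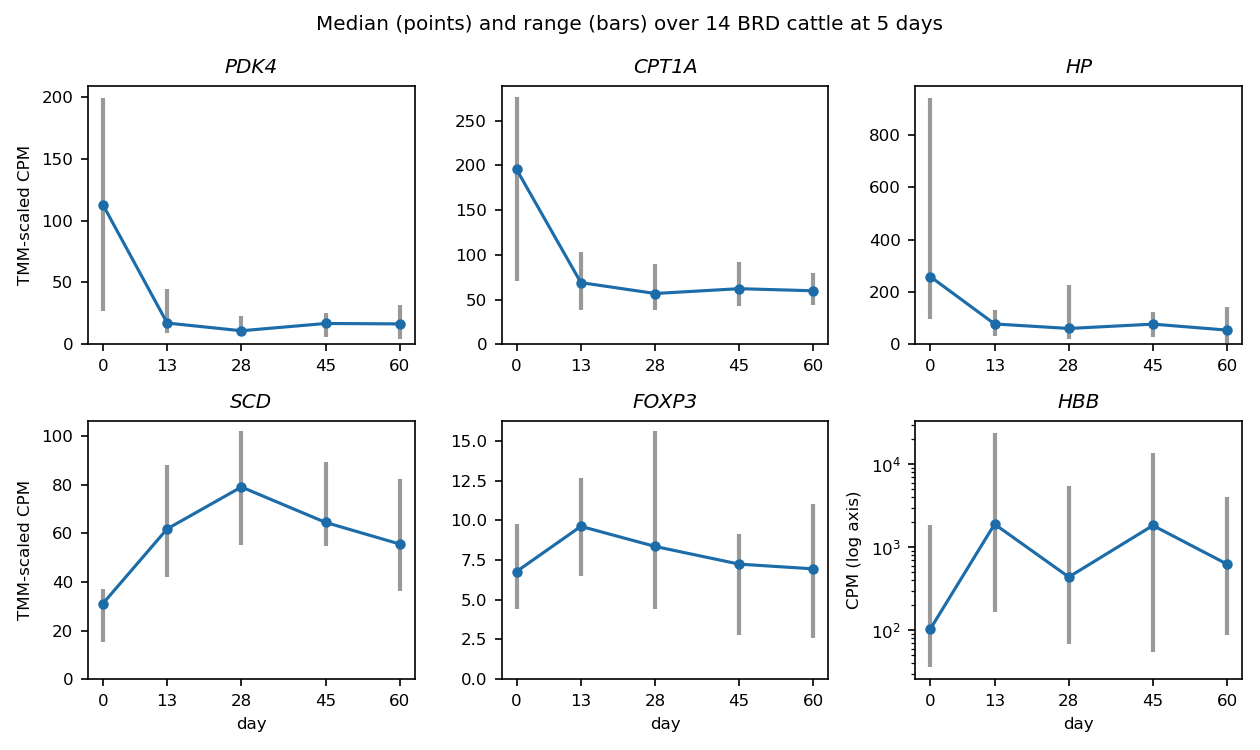
Median (points) and range (bars) of TMM-scaled CPM over 14 BRD cattle at the 5 samplings for 6 genes, with a log axis for HBB. Days 0 and 13 were scaled over their 28 libraries and the later days over all 70 libraries of the BRD cattle. PDK4, CPT1A and HP fell between days 0 and 13 and their medians remained low, the median of SCD was highest at day 28 and that of FOXP3 at day 13, and HBB had its highest medians at days 13 and 45.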

How the data were processed

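Whole blood was drawn into Tempus tubes and RNA was sequenced from stranded mRNA libraries. The authors used Trimmomatic 0.39 for trimming and HISAT2 for mapping, with the bovine genome ARS-UCD1.3, and obtained gene counts by prepDE from the transcripts that StringTie 2.2.0 had assembled. The deposited values are counts for 32395 genes, not normalized, which prepDE derives from read coverage and are no direct tally of reads. Samples were grouped by the labels for day, disease, supplement and animal. The 28 libraries of the BRD cattle at days 0 and 13 had distinct counts, and the other libraries were not checked for this.

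From these counts, TMM factors and a common dispersion were computed with edgeR 4.0.16 (R 4.3.3), with filterByExpr over the 2 days, a term for each animal and 1 for day, quasi-likelihood F-tests and Benjamini-Hochberg adjustment, and an FDR below 0.10 was called. The study used that threshold in edgeR, but kept only genes that also passed a mixed model at an FDR below 0.05, which was not fitted here. CPM are TMM-scaled. The difference between diseases and among supplements was tested as an interaction with day, and later days were fitted over the 70 libraries of the BRD cattle. The common dispersion of 0.0814 equalled a biological coefficient of variation of 28.5%. Library measures were compared by exact sign-flip tests over the 14 pairs with scipy 1.17.1. The pairing is given by the animal number in the labels, and each of the 14 day 0 libraries correlated best with the day 13 library of its own animal. The methods were tested on simulated data. Figures were drawn with matplotlib 3.10.9.

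Alternatives were RLE factors, DESeq2 1.42.0, limma 3.58.1 with voom, a trended dispersion, no filter or a stricter one (at least 1 CPM in 14 libraries), an FDR of 0.05, no animal term, more libraries in the fit, and the omission of each animal and each supplement. The omission of animals 9, 21 and 41 was added after seeing the data. The members, the 34 gene lists (841 of 870 entries had a row) and the rules were chosen with earlier results of these data known. The rule named the 12 genes of smallest p in each direction with a symbol and a change in at least 12 of the 14 animals, the 3 called genes of smallest p of each list or its most abundant member where none was called, and the 3 of smallest p of each interaction. Other genes given with values were chosen after their values were seen. Some genes of these lists enter the counts and are not reported here by name. Coordinates and sequences were not used here.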

Additional observations from a re-analysis of the deposited data

How the results depend on the processing

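The 1449 genes called between day 0 and day 13 became 504 without the animal term, 839 at an FDR of 0.05, 2625 when all 70 libraries of the BRD cattle entered, 2243 with the healthy cattle in the fit, and 251, 823 and 422 without the AAC, COMBO and INR cattle. Without animals 9, 21 and 41 there were 383. With each animal left out in turn the count ranged from 940 (without animal 21) to 1784 (without animal 27). RLE factors gave 1457, DESeq2 2144, limma 1573, a trended dispersion 1446, no filter 1137 and the stricter filter 1354. Omissions lower the number of pairs, and whether the omitted animals mattered beyond that was not tested. Without the animal term, the later days gave 1299, 1402 and 1201 calls against 3272, 3574 and 3038.

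The disease by day term remained at 0 calls in every omission, and DESeq2 called 2 genes, LOC107132911 and LOC112449266, named after their values were seen. The supplement by day terms gave 0 to 711 calls over the omissions, 711 without animal 16, and 110 with DESeq2, and the cause was not tested. Over the omissions, the difference in haemoglobin share ranged from 1.38 to 1.99 percentage points, and in the share of the 10 most abundant genes from 1.07 to 1.67. The difference in total counts ranged from -1998225 to -391959, and in genes with at least 1 count from 90.9 to 257. Of 93 named genes, 86 were called, 33 of them under every alternative in which they could be tested, and none of the 86 reversed. LOC112441469, not called, ranged from -0.83 to 0.18.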
